A study of Mus musculus with 2 samples.

Results

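The miR-30 family was followed in Müller glia (MG), the glia that span the retina and serve its neurons, with and without deletion of Dicer1. The family was taken as the 5 unstarred mouse probes mmu-miR-30a, mmu-miR-30b, mmu-miR-30c, mmu-miR-30d and mmu-miR-30e, out of 566 mouse miRNA probes on the panel. The Dicer-CKO sample came from Rlbp1-CreER:tdTomato:Dicerf/f mice, and cells of 26 adult retinas were pooled for it. The wild-type sample came from Rlbp1-CreER:tdTomato mice with 40 adult retinas pooled, although its extraction label repeats the number 26. Both genotypes carry the Rlbp1-driven, tamoxifen-dependent Cre and the tdTomato reporter and received 75 mg/kg tamoxifen at postnatal days 11 to 14, so they differ in the floxed Dicer1 alleles. MG were sorted by FACS for tdTomato, and miRNAs were counted with NanoString nCounter, in which each mature miRNA is ligated to a tag, hybridized to a barcoded probe and counted as a molecule. There was 1 library per group. The differences described here could not be checked against replicates, and for that reason none has a p-value.

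Dicer cuts the hairpin precursor of a miRNA to release the mature strand, and most mature miRNAs cannot be made without it. The miR-30 family is made from hairpin genes arranged in pairs, and its members share the seed, the bases near the 5′ end that pair with target mRNAs. In mammals the family is known for dampening autophagy, through Becn1, and the epithelial to mesenchymal transition, through Snai1.

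The mature sequences are shown because they define what each probe reads and how alike the members are. RefSeq sequences (assembly GRCm38.p6) were matched for 3 of the 5 members, and a search for the same seed, bases 2 to 8, among the mature mouse miRNAs of RefSeq gave 1 further probe of the panel, miR-384-5p. The seed is in capitals.
miR-30a: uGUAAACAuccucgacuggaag
miR-30c: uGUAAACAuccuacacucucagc
miR-30e: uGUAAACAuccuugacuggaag
miR-384-5p: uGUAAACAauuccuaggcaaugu
Counted from the 5′ end, miR-30a and miR-30e differ at a single base, C13U with the base of miR-30a first. miR-30c is identical to both over the first 12 bases and differs from each at 5 of 22 positions, all in the 3′ part. miR-384-5p is identical to them over the first 8 bases and differs from miR-30a at 10 of 22 positions. Of the 3 members shown, miR-30a and miR-30e are the most alike, and how far their probes read each other was not tested.

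The genes lie in 3 clusters. Mir30a (chr1:23272269-23272339) and Mir30c-2 (chr1:23291701-23291784) are separated by 19361 bp, and no annotated gene spans either of them in RefSeq. Mir30b (chr15:68337415-68337510) and Mir30d (chr15:68341208-68341289) are separated by 3697 bp and are likewise spanned by no gene. Mir30c-1 (chr4:120769534-120769622) and Mir30e (chr4:120772606-120772697) are 2983 bp apart within Nfyc (chr4:120757435-120831579), which encodes a subunit of the transcription factor NF-Y, and RefSeq lists a further miRNA gene, Mir30f, over the bases of Mir30e. miR-30c has a gene in each of the clusters on chromosomes 1 and 4. Both hairpins follow with the mature strand in capitals, because they yield the same 23 bases.
Mir30c-1: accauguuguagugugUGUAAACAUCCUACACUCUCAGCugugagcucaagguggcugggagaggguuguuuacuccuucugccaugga
Mir30c-2: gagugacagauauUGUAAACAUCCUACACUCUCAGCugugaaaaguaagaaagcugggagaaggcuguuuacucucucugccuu
The flanks and the loop differ, but the probe reads the mature strand. A count for mmu-miR-30c is therefore the sum of both genes, and a comparison of miR-30c with miR-30a or miR-30e compares a gene with a sum that includes its neighbor.

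Counts were far lower in the Dicer-CKO library, for the miR-30 family and for the controls of input. The library held 139812 barcodes in Dicer-CKO and 769736 in wild-type. Raw counts of the 4 housekeeping mRNAs were 22.1 to 35.7% of wild-type, whereas the positive controls ran from 88 to 40140 in Dicer-CKO and from 67 to 31909 in wild-type. To compare levels, the mean of the 8 negative controls (20.4 in Dicer-CKO, 38.6 in wild-type) was subtracted, and the rest was scaled to the positive controls and then to the housekeeping genes. Normalized counts in this text are on that housekeeping scale unless another scale is named. Probes counted as detected when they exceeded that mean by more than 2 SD, which corresponds to a normalized count of 90.0 in Dicer-CKO and 23.6 in wild-type. Dicer1 is not on the panel, so its deletion was not checked here. In pooled cells, fewer cells of a type and less RNA per cell cannot be told apart.

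The sorted pools carried the miRNAs typical of MG. The detected miRNAs of neurons, photoreceptors, immune cells and vessels summed to more in Dicer-CKO on the housekeeping scale. All 5 MG miRNAs of the marker list (miR-204, miR-9, miR-125b-5p, miR-99a and miR-181a) were detected in both libraries, with a summed normalized count (detected probes only) of 47926 in Dicer-CKO and 334301 in wild-type. Of 5 neuronal miRNAs, 3 were detected in Dicer-CKO and 4 in wild-type (summed counts of 8304 and 1137), of 3 photoreceptor miRNAs 2 in each (3250 in Dicer-CKO, 401.4 in wild-type), of 5 immune cell miRNAs 4 in each (1325 in Dicer-CKO, 296.7 in wild-type), and of 4 vessel miRNAs 1 in each (785 in Dicer-CKO, 121 in wild-type). The neuronal sums were led by miR-124 (7503 in Dicer-CKO, 839 in wild-type), whereas miR-137 was detected in wild-type alone and miR-128 in neither library. The vessel sums were miR-126-3p alone. The 2 erythroid miRNAs, miR-451 and miR-144, were below the mean background in both. miR-30 miRNAs are made in many cell types, and the part of other cells in the miR-30 counts was not tested.

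All 5 members of the family were detected in both libraries, and miR-30c was the main one in each. mmu-miR-30c had a raw count of 766 in Dicer-CKO and 12121 in wild-type, which gave normalized counts of 2043 (95% Poisson interval 1897 to 2197, counting error only) and 8649 (8495 to 8805). It ranked 16 of the 566 mouse probes by raw count in Dicer-CKO and 10 in wild-type. mmu-miR-30d had raw counts of 226 in Dicer-CKO and 4087 in wild-type and normalized counts of 563 (485 to 650) and 2898 (2809 to 2989).

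The other 3 members were less abundant. mmu-miR-30a had raw counts of 191 in Dicer-CKO and 1907 in wild-type, and normalized counts of 467 (396 to 547) and 1337 (1277 to 1400). mmu-miR-30b had raw counts of 203 in Dicer-CKO and 1127 in wild-type, and normalized counts of 500.4 (426 to 582) and 779 (733 to 828). In wild-type the order of levels was miR-30c, miR-30d, miR-30a, miR-30b and miR-30e, with no overlap between the intervals of neighbors. In Dicer-CKO the intervals of miR-30d, miR-30b and miR-30a overlapped, and their order is not settled. Since probes differ in how efficiently they capture their miRNA, any order between members is approximate.

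mmu-miR-30e was the scarcest member and lay close to background in Dicer-CKO. Its raw count was 61 in Dicer-CKO and 278 in wild-type, and its normalized count 111 (72.0 to 159) and 171 (149 to 196). In Dicer-CKO this raw count was 1.15 times the detection limit, and the mean background made up 33.4% of it. The highest of the negative controls there had a count of 59. In wild-type miR-30e was 3.88 times the limit. Every other member was at least 3.59 times the limit in Dicer-CKO, the lowest being miR-30a.

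**Figure D1:**
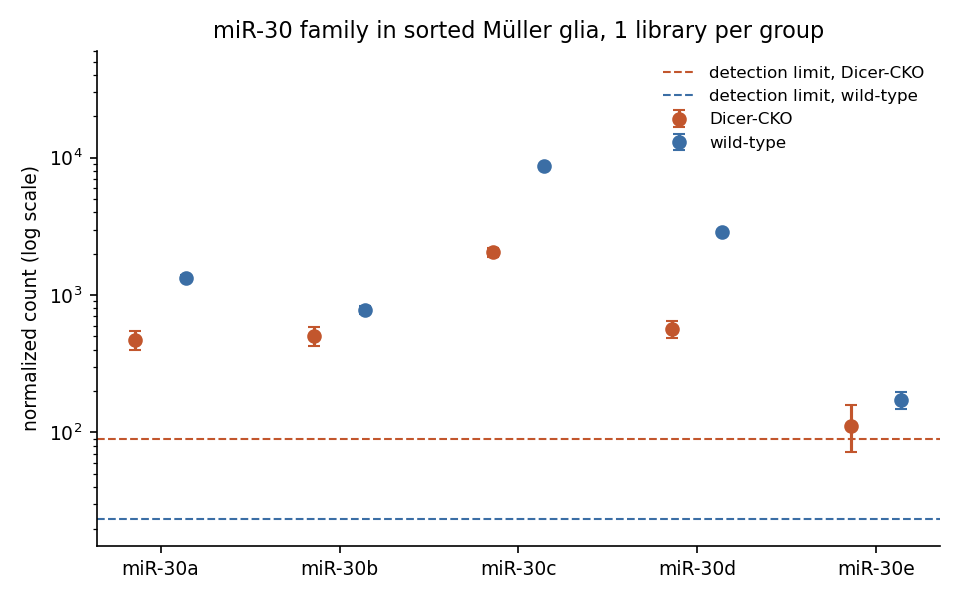
Normalized counts (log axis) of the 5 miR-30 members in the Dicer-CKO (left point of each pair) and wild-type (right point) libraries, 1 library each, with exact 95% Poisson intervals of the raw count and dashed lines for the detection limit of each library. Each Dicer-CKO point lies below its wild-type partner, from 2043 against 8649 for miR-30c to 111 against 171 for miR-30e, and the Dicer-CKO interval of miR-30e (72.0 to 159) spans the limit of 90.0.

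On the housekeeping scale every member had a lower count in Dicer-CKO, and the members differed in how much of it remained. For miR-30d 19.4% of the wild-type level remained (16.9 to 22.2%, from the exact 95% interval of the raw counts), a log2 ratio of -2.36. miR-30c was left at 23.6% (21.9 to 25.4%) with a log2 ratio of -2.08, and miR-30a at 35.0% (29.96 to 40.6%) with a log2 ratio of -1.52. These 3 members fell at least 2-fold with an interval that excludes equality. miR-30b was left at 64.2% (55.0 to 74.6%) and miR-30e at 65.0% (48.4 to 86.0%), log2 ratios of -0.64 and -0.62, and neither was past 2-fold with the mean background subtracted. The value of miR-30e depends on that background, and was 16.9% of wild-type with the mean plus 2 SD subtracted and 4.43% with the highest negative control, both past 2-fold.

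These intervals cover counting error alone. They are intervals of the raw counts, background included, carried over by a constant. They are therefore too narrow where background is a large part of the count, as for miR-30e in Dicer-CKO. Wider intervals were computed from the background-subtracted counts with the spread of the negative controls (SD 16.4 in Dicer-CKO, 16.5 in wild-type) added. They differed little for miR-30c (21.7 to 25.8%) and more for miR-30d (15.7 to 24.1%), miR-30a (27.2 to 44.9%) and miR-30b (50.4 to 81.9%), each of which stayed below equality. For miR-30e the interval then ran from 26.4 to 160% of wild-type. That range includes equality, so no direction is given for miR-30e on the background spread seen here.

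**Figure D2:**
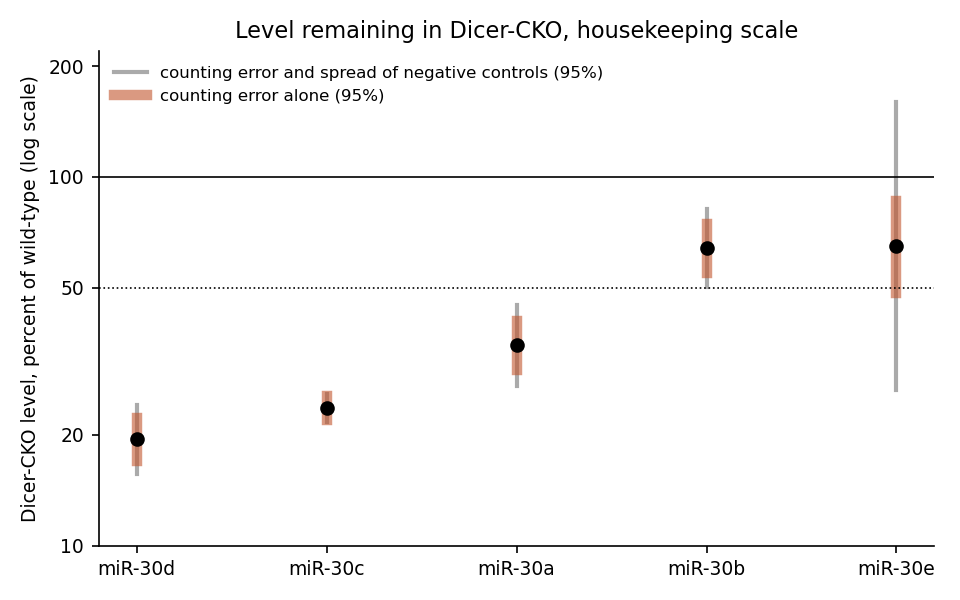
Level in Dicer-CKO as percent of wild-type (log axis, housekeeping scale) for each member, ordered from lowest to highest. Thick lines are 95% intervals for counting error of the raw counts alone, and thin lines those with the spread of the negative controls added. The solid line marks equality and the dotted line 50%. miR-30d (19.4%), miR-30c (23.6%) and miR-30a (35.0%) lie below 50% with their whole intervals, miR-30b (64.2%) lies between the lines, and the thin interval of miR-30e (26.4 to 160%) crosses equality.

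The count of 3 in 5 members called lower is close to that of the panel. Of the 74 mouse probes detected in both libraries, 41 were lower at least 2-fold by the same rule (55.4%), and of the 174 detected in either, 52 were (29.9%). Ordered by ratio from the lowest, miR-30d was 9, miR-30c 14, miR-30a 29, miR-30b 45 and miR-30e 46 of the 74. The median member was left at 35.0%, against 46.1% for the median of the 74 probes, whose quartiles ran from 26.8 to 171%. The members were spread over the lower and middle ranks. All 5 were below wild-type, as were 51 of the 74 probes. No member was higher at least 2-fold in Dicer-CKO, and 18 of the 74 probes were.

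**Figure D3:**
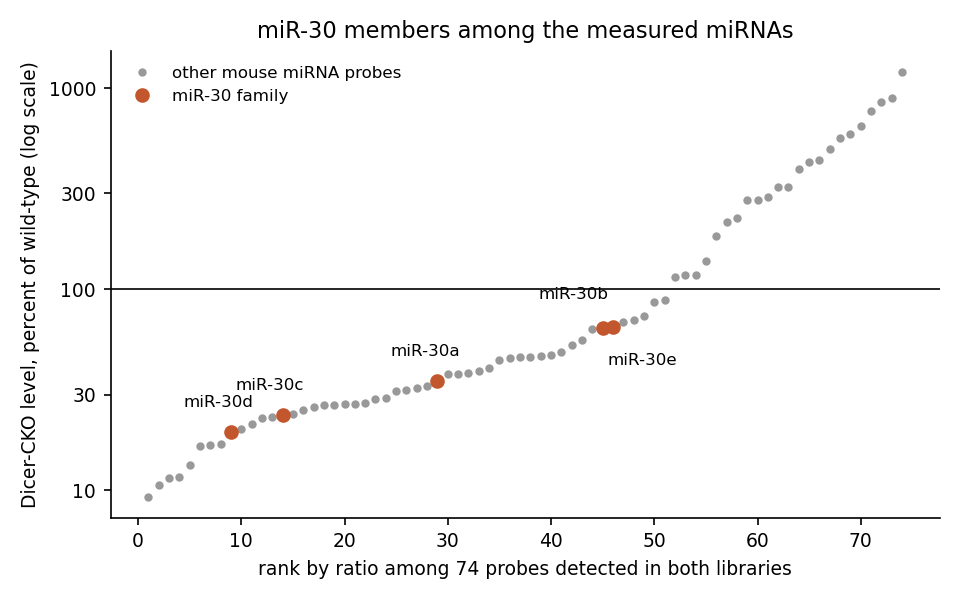
Level in Dicer-CKO as percent of wild-type (log axis, housekeeping scale) for the 74 mouse miRNA probes detected in both libraries, ordered by that ratio, with the miR-30 members marked. miR-30d and miR-30c stand at ranks 9 and 14, miR-30a at 29, and miR-30b and miR-30e side by side at 45 and 46.

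The members summed to a normalized count of 3685 in Dicer-CKO and 13835 in wild-type, which is 26.6% of wild-type (25.2 to 28.1% by counting error). Without miR-30e the sum was 26.2%. Most of the sum is miR-30c. In the let-7 family the sum was 33.9% (33.1 to 34.8%) and members ranged from 21.5 to 75.1%, the highest being an upper bound for miR-98, which was not detected in Dicer-CKO. In the miR-29 family the sum was 68.1% (64.9 to 71.4%) with a range of 46.5 to 118%. The highest member was 3.34 times the lowest in the miR-30 family, 3.19 times among the 8 let-7 members detected in both libraries and 2.54 times in the miR-29 family, and these spreads were not tested against each other. As a share of the signal of the 174 miRNAs detected in either library, the miR-30 family made up 3.11% (2.96 to 3.27%) in Dicer-CKO and 2.86% (2.82 to 2.90%) in wild-type, a slightly higher share in Dicer-CKO by counting error alone.

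Within the clusters, neighbors differed in how much remained. The ratio of the Dicer-CKO to wild-type ratios of a pair of members does not depend on how the libraries are scaled. Its intervals hold the error of counting and of background only. Variation between pools could not be measured with 1 library per group, so they are not intervals for a difference between genotypes. In the cluster on chromosome 15, miR-30b was 0.888 times the level of miR-30d in Dicer-CKO and 0.269 times in wild-type. The relative level was thus 3.30 times higher in Dicer-CKO (95% interval 2.65 to 4.12, and 2.39 to 4.57 with the spread of the negative controls).

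On chromosome 1, miR-30a was 0.229 times the level of miR-30c in Dicer-CKO and 0.155 times in wild-type, a ratio of 1.48 (1.23 to 1.77, and 1.13 to 1.93 with the negative controls). On chromosome 4, miR-30e was 0.0545 times the level of miR-30c in Dicer-CKO and 0.0198 times in wild-type, a ratio of 2.75 (1.83 to 4.13, and 1.12 to 6.78 with the negative controls). The last ratio rests on the miR-30e count of 61 in Dicer-CKO and turns round when more background is removed, to a log2 value of -0.65 with the mean plus 2 SD subtracted and -2.66 with the highest negative control, against 1.46 with the mean subtracted. Since the miR-30c probe adds the products of Mir30c-1 and Mir30c-2, the contrasts on chromosomes 1 and 4 share the same miR-30c counts and are not independent of each other.

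Over all 10 pairs of members, the counting interval of the ratio excluded equality for 9, and the interval with the negative controls for 7, among them all 3 pairs of cluster neighbors and 4 of the 7 pairs from different clusters. The 10 pairs share counts and are not independent. The closest pair lay on different chromosomes, miR-30e over miR-30b with a ratio of 1.01 (0.656 to 1.56, and 0.399 to 2.57 with the negative controls). miR-30c over miR-30d, also from different clusters, had a ratio of 1.21 (1.03 to 1.43, and 0.964 to 1.53 with the negative controls), the wider interval including equality. For miR-30e over miR-30a, which differ at a single base, the ratio was 1.86 (1.20 to 2.87, and 0.731 to 4.72 with the negative controls). Of the 6 pairs without miR-30e, 5 excluded equality by the wider interval, the exception being miR-30c with miR-30d. Pairs of other probes were not counted in this way. Ratios differed widely over the panel, with quartiles of 26.8 and 171% of wild-type among the 74 probes. The counts of pairs are therefore not read as a trait of the miR-30 family.

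The make-up of the family shifted accordingly. miR-30b made up 13.6% (11.9 to 15.4%, from the exact 95% interval of the raw share) of the family's normalized count in Dicer-CKO and 5.63% (5.32 to 5.96%) in wild-type. miR-30a made up 12.7% (11.05 to 14.5%) in Dicer-CKO and 9.67% (9.26 to 10.1%) in wild-type. The shares of the abundant members were smaller in Dicer-CKO, with 55.4% (52.7 to 58.2%) against 62.5% (61.8 to 63.2%) for miR-30c and 15.3% (13.5 to 17.2%) against 20.9% (20.4 to 21.5%) for miR-30d. miR-30e stood at 3.02% (2.32 to 3.86%) in Dicer-CKO and 1.24% (1.10 to 1.39%) in wild-type. With the mean background subtracted, the intervals of the libraries did not overlap for any member, counting error being the only error they hold. How often this holds for other sets of probes was not counted, so it is not read as a trait of the family. The shares are parts of the same total and are not independent of each other, and no such comparison was made for other probes. With the highest negative control subtracted, the share of miR-30e was 0.174% in Dicer-CKO and 1.12% in wild-type, the opposite direction, and that of miR-30c was 61.4% in Dicer-CKO and 62.8% in wild-type. The shares of miR-30b (12.5% in Dicer-CKO, 5.54% in wild-type) and miR-30d (14.5% in Dicer-CKO, 20.95% in wild-type) moved little with that choice.

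**Figure D4:**
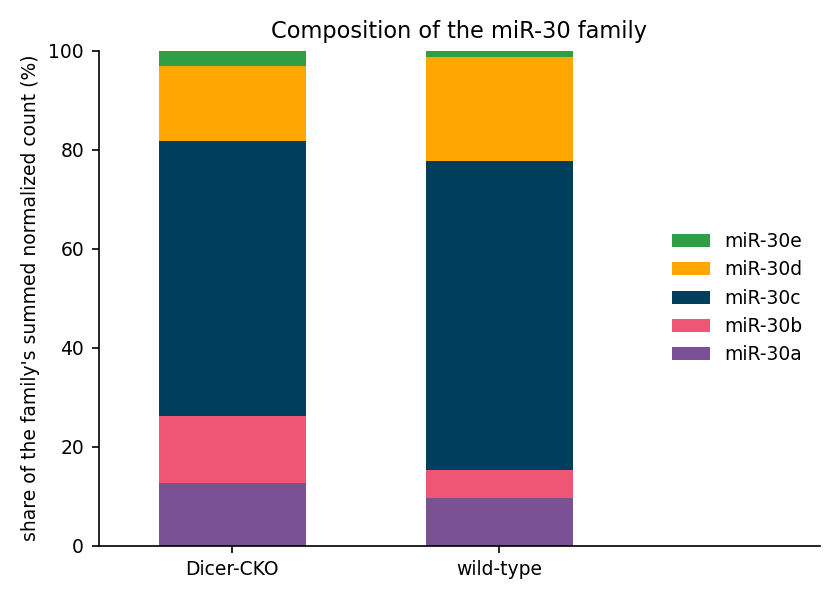
Share of each member in the summed normalized count of the miR-30 family (percent) in Dicer-CKO (left bar) and wild-type (right bar), 1 library each. miR-30c is the largest part of both bars (55.4 and 62.5%), and the part of miR-30b is 13.6% in Dicer-CKO and 5.63% in wild-type.

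The scale between the libraries decides whether the family as a whole counts as lower, and leaves the differences between its members as they are. Scaled to the positive controls only, all 5 members fell more than 2-fold, to 3.58% for miR-30d, 4.35% for miR-30c, 6.44% for miR-30a, 11.8% for miR-30b and 11.97% for miR-30e. Scaled to the sum of the detected miRNAs, miR-30d stood at 79.4% and miR-30c at 96.5%, while miR-30a, miR-30b and miR-30e were above wild-type, at 143%, 262% and 265%. On the geometric mean of the 100 highest miRNAs, miR-30b (146%) and miR-30e (148%) were above wild-type and the others below. Only 77 mouse probes were detected in Dicer-CKO, so this scale rests in part on probes at background, whose lowest values were raised to a floor. The median of the 74 probes detected in both libraries moved with the scale too, with 8.49% on the positive controls, 46.1% on the housekeeping genes and 188% on the sum. A scale moves the members and this median by the same factor, so their distance from it is the same on each. The sum and the 100 highest are made of miRNAs themselves, so a fall shared by most of the signal is divided out on those scales.

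**Figure D5:**
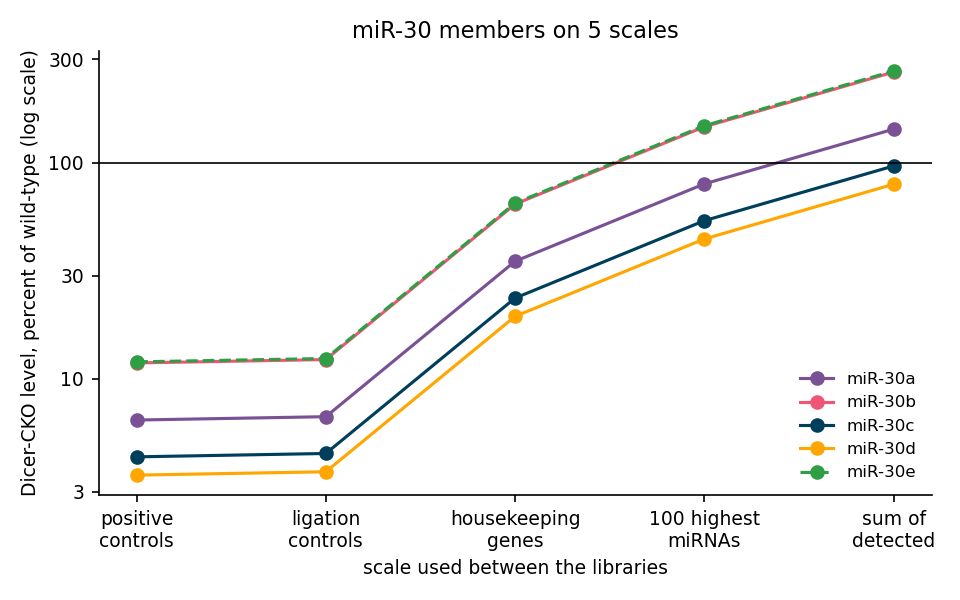
Level in Dicer-CKO as percent of wild-type (log axis) for each member on 5 scales between the libraries, with the line of equality; points of 1 member are joined for the eye only. A change of scale moves all members by the same factor, so their distances stay as they are, and on the sum of detected miRNAs miR-30a (143%), miR-30b (262%) and miR-30e (265%) lie above equality.

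The miRNAs nearest to each member in both levels were looked up among the 74 probes detected in both libraries, by the distance between the 2 log2 normalized counts. They are a description of 2 libraries. miR-30a lay nearest to let-7i (distance 0.18), a member of the let-7 family with 473 in Dicer-CKO and 1510 in wild-type, and then to miR-342-3p (0.18) with 478 and 1516. miR-30c lay nearest to let-7d (0.13), with 2205 in Dicer-CKO and 8240 in wild-type, and then to let-7b (0.44). miR-30d lay nearest to let-7e (0.32), with 609.96 in Dicer-CKO and 2349 in wild-type, and then to miR-22 (0.45). These 6 neighbors were left with 21.5 (let-7b) to 31.6% (miR-342-3p) of wild-type, which the distance used here makes close to the members by construction.

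The nearest probes lay farther from miR-30b and miR-30e. miR-30b lay nearest to the joint probe of miR-1937a and miR-1937b (0.71), at 119% of wild-type, and then to miR-30a (0.79). miR-30e lay nearest to miR-2141 (0.45), at 86.8% of wild-type (66.5 to 112%), and then to miR-21 (0.67), a miRNA known from reactive glia, at 73.5% (56.9 to 94.0%). The seed relative miR-384-5p was near background, with a raw count of 29 in Dicer-CKO, below the limit of 53.2, and 84 in wild-type, above the limit of 71.7. Its normalized count in wild-type was 32.5, against 13835 for the sum of the family, and no ratio is given because that level lies under the Dicer-CKO limit of 90.0.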

How the data were processed

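miRNAs were measured in 1 pooled library of sorted MG per genotype. Raw barcode counts for 626 probes were deposited for each library and gave all main values. The authors also deposited normalized counts, treated here as a score because they are rounded to whole numbers on a scale set in nSolver from housekeeping, negative and positive controls. They served as an alternative. The kind of background step and of mean behind them is not given in the sources used here.

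Groups were taken from the genotype labels, and probes were matched by accession. Factors were geometric means over 6 positive controls and 4 housekeeping genes, and background-subtracted counts were multiplied by 2.74 in Dicer-CKO and by 0.716 in wild-type. Intervals of a ratio are exact 95% binomial intervals of the raw counts carried over by a constant, which makes them too narrow where background is a large part of the count. Those of a ratio of ratios were computed on the log scale from background-subtracted counts. A called fall is at least 2-fold with an interval that excludes equality. The steps were tested on simulated data, scored only for probes well above background in wild-type, so miR-30e was not covered. Simulated Dicer-CKO counts of the scored probes could lie near background. A coverage was required of the interval with the spread of the negative controls, and not of the counting interval. Named miRNAs were the members, probes sharing their seed, and the 2 nearest probes of each member. Members, lists and alternatives were chosen with earlier results of these data known. Python 3.11.15, numpy 2.4.6, scipy 1.17.1 and matplotlib 3.10.9 were used.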

Additional observations from a re-analysis of the deposited data

How the results depend on the processing

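With 1 library per group no paired or replicated analysis was possible. The point value of every member stayed below wild-type in 13 of 15 settings, the exceptions being the scales on the 100 highest and on the sum of detected miRNAs. This includes miR-30e, for which no direction is given. All settings use the same 2 libraries, and those that multiply all members alike cannot change their order. miR-30d, miR-30c, miR-30a and miR-30b kept this order in the 5 settings that do not (background, negative controls and deposited counts). The median log2 ratio of the family was -3.96 with positive controls only, -3.90 with ligation controls, -3.45 without scaling, -0.33 with the 100 highest miRNAs, and 0.51, above wild-type, with the sum of detected miRNAs, where miR-30a was the median member. With a stronger background it was -1.91 (mean plus 2 SD subtracted) and -1.84 (highest negative control subtracted). The family's sum was 4.91%, 5.09%, 6.96%, 60.7% and 109% of wild-type on those 5 scales, 28.7% with the highest negative control subtracted, and 29.0% and 24.5% without B2m or Gapdh. Members lower at least 2-fold numbered 5 with positive controls, with ligation controls and without scaling, 4 under each of the stronger backgrounds, which add miR-30e, 1 with the 100 highest miRNAs, 0 with the sum, 5 at 1.5-fold and 2 at 4-fold. The share of the panel called was computed for the main setting only (55.4% of the 74 probes detected in both libraries). The median of these probes was 8.49% of wild-type with positive controls and 188% with the sum. The counts of members are therefore not read as results about the family. The log2 ratio of ratios of miR-30a over miR-30c was 0.29 with the highest negative control subtracted. That of miR-30e over miR-30c was -0.65 and -2.66 under these stronger backgrounds, which take 53.2 and 59 of the 61 raw counts of miR-30e in Dicer-CKO. Of the alternatives added after the data had been seen, the share of miR-30e in Dicer-CKO minus that in wild-type was -0.419 and -0.951 points under the stronger backgrounds, leaving out miR-30e gave a median of -1.80, and leaving out the highest negative control changed no count of members or of cluster contrasts. A raw count above 100 was reached in both libraries by 4 of 5 members.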
